A study of Mus musculus with 4 samples.

Results

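The clustered replication histone genes are the gene copies, packed into a few clusters, that supply histones H1, H2A, H2B, H3 and H4 to newly made DNA. They were taken here as every gene in the count tables whose symbol starts with Hist1h, Hist2h, Hist3h or Hist4h, which gave 67 of 32285 genes. They were followed across cycling and non-cycling cells of each cell class. The 4 single-cell RNA libraries came from KPC46 pancreatic tumours, KPC46 being a mouse tumour organoid line, grown in B6/129 F1J mice. Vehicle (Cremophor) was given to 2 of the mice and TAK-981 (Subasumstat), an inhibitor of the enzyme that activates the small protein modifier SUMO, to the other 2. All groups therefore carried the same tumour line in the same host strain, and the tumour cells descend from 1 line. Each library held 1 tumour from 1 mouse. Neither the dose, the length of treatment nor the age of the mice is given in the sources used here.

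In most cells these genes are read during DNA replication, under factors that include NPAT at the histone locus and OCT1 on H2B promoters. Their messages are unusual because most end in a short stem-loop bound by SLBP and not in a poly(A) tail, and they are degraded when replication stops. Some copies also make polyadenylated messages, which non-dividing cells can keep. The messages of a separate family of replication-independent variants are mostly polyadenylated. The libraries were made with a kit that primes on poly(A) stretches, so the values are the part of histone RNA which that chemistry picked up.

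The libraries held 2872 to 5556 barcodes and 24411656 to 63898758 unique molecular identifiers (UMIs, 1 per captured RNA molecule). After filtering, 4408 and 4130 cells of the vehicle libraries and 2214 and 3110 cells of the TAK-981 libraries remained. The groups differed in depth: median UMIs per cell were 2269 and 4152.5 for vehicle and 5024.5 and 12831 for TAK-981. Pairs of libraries shared 0 to 6 barcodes. Clusters were named from marker genes with the members left out of the clustering. Epithelial cells numbered 720, 1581, 575 and 1683, in the order vehicle 1, vehicle 2, TAK-981 1 and TAK-981 2, which is used throughout. Of the 1581 epithelial cells of vehicle 2, 1430 lay in 1 cluster led by Prl that held 29 and 34 cells of the TAK-981 libraries. Conversely, epithelial clusters led by Tff2 (2, 1, 15 and 375 cells) and by Hp and Ttr (11, 2, 273 and 130 cells) were mostly of the TAK-981 libraries. Epithelial markers summed to 3291 to 5195 UMIs per 1000000 in the cycling epithelial cells, and macrophage markers to 8015 to 14891 in the cycling macrophages or monocytes (macrophages hereafter). None of the 8 epithelial or 9 macrophage markers was at 0 in its own class. The classes were named from these same lists, so the marker values are no separate check of the names. The epithelial clusters led by Tnfrsf12a (1989 cells) and by Prl (1728 cells) each had 5 of 8 epithelial markers in at least 10% of cells. Among the top 10 genes of each, 0 were epithelial markers.

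The 67 members comprised 6 H1, 18 H2A, 18 H2B, 12 H3 and 13 H4 genes. On the mm10 build, 54 lay in the Hist1 cluster on chromosome 13 between positions 21715763 and 23934851. A further 10 lay in the Hist2 cluster on chromosome 3 (96219865 to 96270132), 2 in Hist3 on chromosome 11 (58948920 to 58956830) and 1 was the Hist4 gene on chromosome 6 (136801553 to 136804415). Of all members, 64 had at least 1 UMI and 3 had none. Counts were uneven: 12 members had 1000 UMIs or more and 22 had 1 to 99. In all, 86909 of the 134400049 UMIs of the analysed cells belonged to members, and the 5 with the most UMIs held 60.9% of these. They were Hist1h2bc (17412 UMIs), Hist1h1b (10977), Hist1h1c (9134), Hist1h2ap (8151) and Hist1h1e (7253).

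The members were split by what the GENCODE vM21 annotation places after the stop codon, a property taken from sequence and not from the counts. The poly(A) signal hexamer AATAAA was found in the annotated sequence after the stop codon of 19 members, of which 15 also carried a stem-loop. That sequence had a median of 1258 nt in these 19, which are called members with a poly(A) signal below. A match anywhere counted, and its distance from the 3′ end was not checked. Longer sequence gives more room for a match. Another 31 members carried a stem-loop and no such hexamer (stem-loop only), with a median of 93 nt after the stop. Their annotated sequence need not end at the stem-loop. It runs on by 3 nt in Hist1h2ap, 770 nt in Hist1h4d and 1153 nt in Hist1h1e. The remaining 17 carried neither, and for 15 of these the annotation ends within 3 nt of the stop codon, so their true ends are not in the annotation used. The grouping thus describes the annotation and not the ends of the RNAs in these cells. H2B members were frequent among those with a poly(A) signal (8 of 18), while 8 of 12 H3 and 8 of 13 H4 members carried a stem-loop only.

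The stem-loop was found in 46 members, starting 22 to 59 nt after the stop codon. The sequences are shown because members with a stem-loop only and members with a poly(A) signal gave different counts of changes in the results that follow. The 4-base loop is in capitals, the flanking 6-base arms are in lower case, and bases are written as DNA.
H1, H2A, H2B and H3 stem-loop, 26 members: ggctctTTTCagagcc
H4 stem-loop, 7 members including Hist1h4c, Hist1h4d and Hist1h4h: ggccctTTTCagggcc
Stem-loop of 6 members including Hist1h3c, Hist1h3e and Hist1h2bb: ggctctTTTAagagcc
Stem-loop of Hist1h4i and Hist2h4: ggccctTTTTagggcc
Stem-loop of Hist1h4b and Hist1h4j: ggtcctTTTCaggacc
The remaining 3 members, Hist1h4a, Hist1h3g and Hist2h2ac, had 1 further variant each. The loop was most often TTTC, and the H4 copies differed from the other types in the arms.

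Several members overlap neighbours or share sequence with copies, and may not be told apart in full. Hist1h2be overlaps Hist1h1e, Hist2h2bb overlaps Gm42743 and Hist3h2a overlaps Trim17. Hist1h2ao and Hist1h2ap, Hist1h4m and Hist1h4n, Hist2h2aa1 and Hist2h2aa2, and Hist1h3e and Hist1h3f share sequence. So do sets among Hist1h2bc, Hist1h2bj, Hist1h2bq, Hist1h2br and Hist1h2ba, and Hist1h2bn with Hist1h2bf and Hist1h2bh. In each case the end of an annotated transcript of 1 member occurs somewhere in another. Hist1h2ba, Hist1h2bn and 1 transcript each of Hist1h2bq and Hist1h2br end at the stop codon, so that end is coding sequence. The annotation of Hist1h2bc and Hist1h2bh runs on for 742 and 1258 nt after the stop codon. Their 3′ ends were not shown to be shared. Values of these genes are uncertain to that extent.

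Promoters of 61 members were matched in the RefSeq set (GRCm38.p6, 250 bases before to 50 after the annotated start). The motif CCAAT, read on both strands, was present in 85.2% of them, against 41.1% of all 27025 promoters of the same length. It was in all H1, H2A, H2B and H3 promoters matched and in 25% of the H4 promoters. TATAAA was in 57.4% of member promoters and 15.7% of all promoters. The octamer ATTTGCAT, a recognition sequence of OCT1, was in 23.0% against 1.97%, and its 14 matches were in 7 of the 17 H2A and 7 of the 16 H2B promoters. Some matches are the same site counted in both genes of a neighbouring H2A and H2B pair on opposite strands. This holds for Hist1h2ae and Hist1h2bg, Hist1h2ah and Hist1h2bk, and Hist1h2aa and Hist1h2ba. Shared promoter sequence can count CCAAT matches more than once in the same way. AAACACA, searched after the promoters had been viewed, was in 5 of the 6 H1 promoters at 112 to 122 bases before the start, and in 8.22% of all promoters. CCAAT and ATTTGCAT can share letters where they meet, as can TATAAA and AAACACA, and a match describes letters only.

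**Figure D1:**
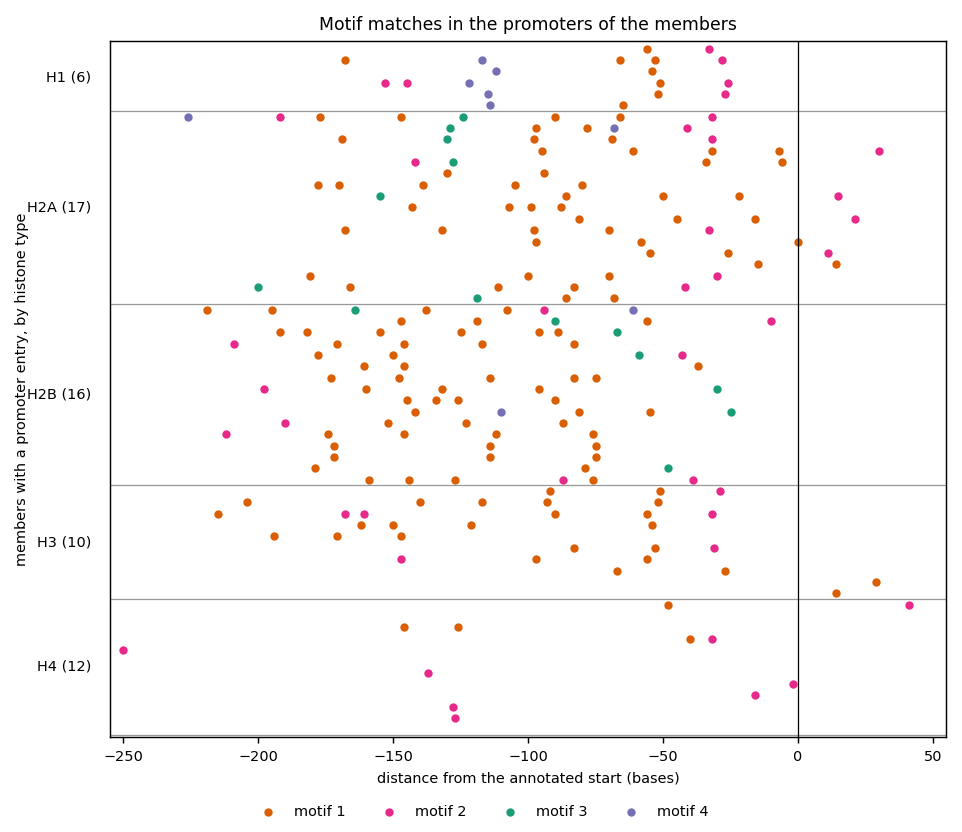
Positions of motif matches in the promoters of 61 members. The horizontal axis is the distance in bases from the annotated start, each row is 1 promoter grouped by histone type, and colours mark motif 1 (CCAAT), motif 2 (TATAAA), motif 3 (ATTTGCAT) and motif 4 (AAACACA), each read on both strands. H1, H2A, H2B and H3 rows all hold motif 1, whereas 25% of H4 rows do.

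The 150 bases upstream of 4 members are printed because these genes carry the results that follow: Hist1h4d and Hist2h2bb were lower under TAK-981, Hist1h1b followed the cell cycle and Hist1h1c had its highest level in neutrophils. Motif matches are in capitals, and each sequence is given 5′ to 3′ on the strand of the gene.
Hist1h4d, chr13:23581418-23581567, plus strand: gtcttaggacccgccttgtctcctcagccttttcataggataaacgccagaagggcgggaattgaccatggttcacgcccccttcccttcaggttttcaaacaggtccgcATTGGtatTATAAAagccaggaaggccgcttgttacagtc
Hist1h1b, chr13:21780626-21780775, minus strand: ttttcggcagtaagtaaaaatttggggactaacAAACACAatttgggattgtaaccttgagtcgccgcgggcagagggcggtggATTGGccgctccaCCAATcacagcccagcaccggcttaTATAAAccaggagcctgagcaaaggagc
Hist1h1c, chr13:23738657-23738806, plus strand: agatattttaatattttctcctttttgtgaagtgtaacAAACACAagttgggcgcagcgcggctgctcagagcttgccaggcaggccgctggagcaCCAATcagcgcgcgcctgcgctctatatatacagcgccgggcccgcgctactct
Hist2h2bb, chr3:96269550-96269699, plus strand: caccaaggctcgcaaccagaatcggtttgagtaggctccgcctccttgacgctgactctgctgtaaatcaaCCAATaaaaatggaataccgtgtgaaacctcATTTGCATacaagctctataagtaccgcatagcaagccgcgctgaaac
All 4 hold CCAAT or its complement ATTGG. Hist1h1b and Hist1h1c, both H1 genes, hold AAACACA before it, and the H2B gene Hist2h2bb holds the octamer after it. Hist1h2bc had no promoter entry.

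A cell was called cycling when it held at least 1 UMI of Mki67 or Top2a, genes of dividing cells that are not members. By this rule 443, 624, 284 and 808 epithelial cells were cycling, or 61.5%, 39.5%, 49.4% and 48.0%. These shares depend on depth: with every cell thinned to 1000 UMIs they were 23.0%, 13.4%, 11.7% and 13.3%. Cycling cells were also deeper, with median UMIs of 19523, 13709, 30418.5 and 34720 in the epithelial class. Counts were summed over the cells of each class, state and library, and tested with edgeR's quasi-likelihood test with the library as a block. A library entered where it had at least 15 cells in both states, so that n was 4 libraries in epithelial cells, macrophages and fibroblasts and 2 in T or NK cells and in neutrophils. Adjusted p-values are Benjamini-Hochberg over all genes tested, and the threshold was 0.05. Each SE was derived as the absolute log2 fold change divided by the square root of edgeR's F statistic. It is not a fitted standard error. Unless stated otherwise, a level is in CPM: the gene's UMIs in the summed cells per 1000000, after edgeR's TMM adjustment of the total.

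In epithelial cells, the members split into those that were far higher in cycling cells and a smaller set that was lower there. Low-count filtering left 43 of the 67 members, of which 27 rose and 4 fell in cycling cells, while among all 12483 genes tested 19.9% rose and 21.3% fell. The median log2 fold change over the 43 was 2.34.

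Hist1h1b, the linker histone H1.5, had the largest fold change among well-counted members. Its level in cycling epithelial cells was 284, 105, 103 and 106 CPM, and in non-cycling cells 2.55, 1.74, 0.88 and 0.88 CPM. All 4 cycling values lay far above all non-cycling ones, and vehicle 1 was the highest library in both states. The log2 fold change was 6.63 (SE 0.14, edgeR adjusted p = 2.904e-12). Hist1h2ap, an H2A gene, was at 156, 64.3, 19.0 and 126 CPM in cycling and 3.19, 2.11, 1.06 and 2.70 CPM in non-cycling cells. The states did not overlap, and TAK-981 1 was the lowest library in both. Its log2 fold change was 5.34 (SE 0.15, edgeR adjusted p = 1.154e-11). Hist1h4d, an H4 gene on chromosome 13 at 23581598 to 23582735 with a single exon, was at 222, 81.2, 5.43 and 7.36 CPM in cycling and 17.6, 9.93, 0.70 and 1.98 CPM in non-cycling cells. Cycling exceeded non-cycling within each library, but the vehicle libraries' non-cycling values lay above the TAK-981 libraries' cycling ones. The log2 fold change was 3.03 (SE 0.20, edgeR adjusted p = 4.798e-08).

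Other members that rose in cycling epithelial cells covered all 5 histone types. Among H1 genes, Hist1h1a rose by 4.92 and Hist1h1e by 3.45 on the log2 scale. The H2A genes Hist1h2ab, Hist2h2ac and Hist1h2ae rose by 3.82, 3.55 and 3.40. The H2B genes Hist1h2bn, Hist1h2bm, Hist1h2bj and Hist2h2bb rose by 4.54, 4.50, 3.84 and 3.64, and the H3 gene Hist1h3c rose by 3.58. Hist1h4i, an H4 gene, rose by 0.82. The H2A genes Hist1h2af, Hist1h2an and Hist1h2ai had log2 fold changes of 6.69, 6.58 and 6.55, on low counts.

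The members that fell in cycling epithelial cells were Hist1h2bc, Hist1h1c, Hist1h2ac and Hist3h2a, all with the hexamer AATAAA after the stop codon. Hist1h2bc, an H2B gene of 2 exons at 23684199 to 23692908 on chromosome 13, was at 44.7, 129, 79.3 and 78.5 CPM in cycling and 115, 167, 279 and 233 CPM in non-cycling cells. It was lower in the cycling cells of every library, with a log2 fold change of -1.27 (SE 0.17, edgeR adjusted p = 4.637e-05). Hist1h1c, the linker histone H1.2, fell by 0.98 on the log2 scale (SE 0.16, edgeR adjusted p = 0.0003081). Hist1h2ac, an H2A gene, fell by 0.86 and Hist3h2a, the H2A gene of the Hist3 cluster, fell by 0.62. The call of Hist1h2ac was lost with DESeq2, with cycling called at 1000 UMIs and without either TAK-981 library, and that of Hist1h1c with cycling called at 1000 UMIs.

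**Figure D2:**
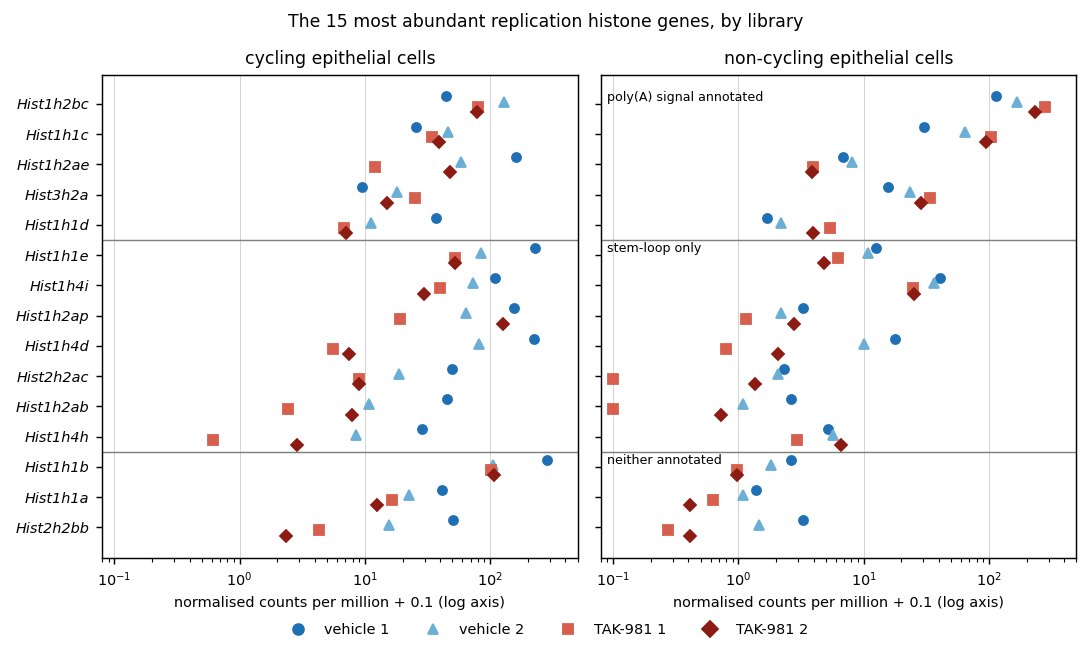
Levels of the 15 most abundant members in cycling (left) and non-cycling (right) epithelial cells. Each point is 1 library, blue for vehicle and red for TAK-981, the horizontal axis is CPM plus 0.1 on a log scale, and rows are grouped by annotated 3′ end. Hist1h1b lies at 103 to 284 in cycling and 0.88 to 2.55 in non-cycling cells, whereas Hist1h2bc is lower in the cycling cells of every library.

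The calls were unevenly spread over the annotated 3′ ends. Of 14 tested members with a poly(A) signal, 2 rose (Hist1h1d and Hist1h2ae), 4 fell, and the median log2 fold change was -0.09. Of 20 tested members with a stem-loop only, 16 rose with a median of 3.05, and of 9 tested members with neither, 9 rose with a median of 4.92. The low-count filter keeps a gene with enough counts in a few of the sums. A member near 0 in non-cycling cells can therefore enter through its cycling sums alone, which favours calls of a rise. How many did so was not counted, and the groups were not compared by a test of their own. Members with a poly(A) signal also have longer annotated transcripts, and 46 of the 67 members are under 800 nt against 19.3% of all genes.

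In macrophages most tested members were higher in cycling cells and none passed the test as lower. Of 33 members tested, 25 rose in cycling macrophages and 0 fell, where 9.5% of all 9916 genes rose and 11.1% fell. With DESeq2, 21 rose. The median log2 fold change of the members was 2.63. By 3′ end, 5 of 11 tested members with a poly(A) signal rose, 16 of 18 with a stem-loop only and 4 of 4 with neither. The limit set by the low-count filter holds here too.

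Hist1h1b stood at 382, 310, 193 and 124 CPM in cycling macrophages and at 7.76, 2.92, 13.2 and 2.51 CPM in non-cycling ones. The states did not overlap, and both vehicle libraries were above both TAK-981 libraries in cycling cells. The log2 fold change was 5.16 (edgeR adjusted p = 9.268e-20). Hist1h3c, an H3 gene, was at 56.6, 50.4, 16.0 and 7.41 CPM in cycling and at 0.90, 0.49, 0.69 and 0 CPM in non-cycling macrophages, the latter from 3 UMIs or fewer per library, and its fitted log2 fold change was 5.76. Hist1h2ap rose by 5.32, Hist1h4d by 2.80 and Hist1h4i by 0.41. For Hist1h2bc the log2 fold change was 0.04 and for Hist1h1c 0.02, and neither passed the test.

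The smaller classes held enough counts for few members. In fibroblasts 5 of 9 tested members rose and 0 fell, against 2.6% and 0.632% of 7276 genes: Hist1h1b by 5.70, Hist1h2ap by 5.39, Hist1h2ae by 4.53, Hist1h1d by 3.46 and Hist1h1e by 2.72 on the log2 scale. Hist1h1b was at 227, 83.7, 57.5 and 210 CPM in cycling fibroblasts, and non-cycling fibroblasts held 0, 5, 2 and 0 UMIs of it. In T or NK cells the test rested on the 2 TAK-981 libraries, since the vehicle libraries held 14 and 7 cycling cells. There 2 of 4 tested members rose and 0 fell, against 1.12% and 0.423% of 3307 genes, namely Hist1h2ap by 5.87 and Hist1h1b by 5.63, and the call of Hist1h1b was lost with DESeq2. In neutrophils, which do not divide once mature, the test rested on the 2 vehicle libraries, since the TAK-981 libraries held 2 cycling cells each. There 3 members were tested and 0 were higher by edgeR, with adjusted p of 0.6195 to 0.9982, where 0.0938% of 2132 genes were higher. None of those 3, Hist1h1c, Hist1h2bc and Hist1h4i, had an unadjusted p under 0.05.

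Within cycling cells, those with more UMIs of S phase genes than of G2/M genes were compared with those with more of G2/M genes. The S-leaning group was small, with 198 of 2159 cycling epithelial cells, against 1938 G2/M-leaning cells. Another 23 cells with equal counts were left out, and 504 cells lay near the dividing line. The rule that makes a cell cycling uses Mki67 and Top2a, which are themselves highest in G2/M. Members were lower in the S-leaning cells: of 46 tested in the epithelial class 8 fell and 0 rose, against 2.2% and 0.762% of 11949 genes. DESeq2 called 3 lower, as did the edgeR fit without vehicle 1, and 4 fell without TAK-981 2.

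Hist1h1b was at 165, 97.3, 56.1 and 73.3 CPM in S-leaning and 299, 106, 108 and 115 CPM in G2/M-leaning epithelial cells. It was lower in the S-leaning cells of every library, by a small margin in vehicle 2, with a log2 fold change of -0.72 (edgeR adjusted p = 3.873e-06). The others that fell were Hist1h2ab, Hist1h3e, Hist1h1a, Hist1h1e, Hist1h4d, Hist1h2bc and Hist1h2ae, by 0.60 to 1.52 on the log2 scale. In macrophages 10 of 18 tested members fell and 0 rose, against 1.53% and 0.911% of 6914 genes. Hist1h4d fell by 2.24, Hist1h1b by 1.70 and Hist1h2bc by 1.41, and 5 members fell without vehicle 1. DESeq2 called 3 of them lower. Summed over all members, the S-leaning level was 0.628, 0.704, 0.648 and 0.754 of the G2/M-leaning level in epithelial cells. In macrophages it was 0.182, 0.0608, 0.304 and 0.685.

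TAK-981 was then compared with vehicle within each class and state, with 2 libraries against 2. In cycling epithelial cells 13 of 43 tested members fell under TAK-981 and 0 rose, where 2.98% of 11723 genes fell and 1.51% rose. The median log2 fold change over the 43 was -1.87, and over tested genes of other families with transcripts under 800 nt it was -0.72, so short transcripts were lower as a whole. With the scaling taken from transcripts under 800 nt, the median of all genes moved from 0.01 to 1.02 on the log2 scale. Under that scaling 15 members were lower and 3 higher (shares of all genes not given). The count rests on few libraries: it was 4 without vehicle 1, 21 without vehicle 2, 0 without TAK-981 1 and 1 without TAK-981 2.

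Hist1h4d gave the smallest p-value. It was at 227, 82.0, 5.57 and 7.55 CPM in cycling epithelial cells, from 1807, 653, 74 and 280 UMIs. Both vehicle libraries were above both TAK-981 libraries, vehicle 1 by the most. The log2 fold change was -4.56 (SE 0.52, edgeR adjusted p = 0.01055), and adjusted p was 0.0554 without TAK-981 1. The other H4 genes that fell were Hist1h4c and Hist1h4i. Hist1h4c, at 23697635 to 23698454 on chromosome 13, was at 16.6, 4.14, 0.15 and 0.38 CPM, with 132, 33, 2 and 14 UMIs. The groups did not overlap, and its log2 fold change was -5.11 (SE 0.80, edgeR adjusted p = 0.02058). Hist1h4i was at 111, 74.3, 40.9 and 30.3 CPM, also without overlap, and fell by 1.40 (SE 0.28, edgeR adjusted p = 0.03958), a call that was lost with the crossed block and when TMM was taken from transcripts under 800 nt (log2 fold change -0.37, edgeR adjusted p = 0.3002).

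The H2B genes that fell were Hist1h2bj, Hist2h2bb, Hist1h2bn, Hist1h2bb and Hist1h2bm. Hist1h2bj was at 23.1, 9.42, 0.90 and 1.48 CPM (log2 fold change -3.72, SE 0.52, edgeR adjusted p = 0.01358). Hist2h2bb, at 96269752 to 96270132 on chromosome 3, was at 52.0, 15.7, 4.29 and 2.32 CPM (log2 fold change -3.42, SE 0.60, edgeR adjusted p = 0.02872). In both genes the vehicle libraries lay above the TAK-981 libraries. The H3 genes Hist1h3a, Hist1h3e, Hist1h3c and Hist1h3i fell by 2.92 to 3.27 on the log2 scale. Hist1h3c, for example, was at 33.8, 14.7, 3.99 and 2.59 CPM. The only H2A gene called was Hist1h2ak, with a log2 fold change of -3.40, and no H1 gene was called.

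Several of the most abundant members did not pass the test. Hist1h1b was at 290, 106, 105 and 109 CPM, so that vehicle 1 stood alone and vehicle 2 lay within the TAK-981 values (log2 fold change -0.91, edgeR adjusted p = 0.259). Hist1h1e was at 235, 86.1, 53.5 and 53.5 CPM without overlap (-1.61, edgeR adjusted p = 0.0841). Hist1h2ap was at 159, 64.9, 19.4 and 129 CPM, with the groups overlapping (-0.60, edgeR adjusted p = 0.6876). Hist1h2bc, at 45.6, 130, 81.2 and 80.5 CPM, and Hist1h1c, at 25.9, 46.8, 35.4 and 40.0 CPM, had log2 fold changes of -0.14 and 0.04, and both TAK-981 values lay between the vehicle values.

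By 3′ end, none of 14 tested members with a poly(A) signal was called by edgeR, with a median of -0.49 and 6 of 14 above 0. Of 20 with a stem-loop only, 9 fell (median -2.72), and of 9 with neither, 4 fell (median -2.39). Here the low-count filter can pass a member through the libraries of a single treatment group. A difference between these groups by 3′ end was not tested.

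**Figure D3:**
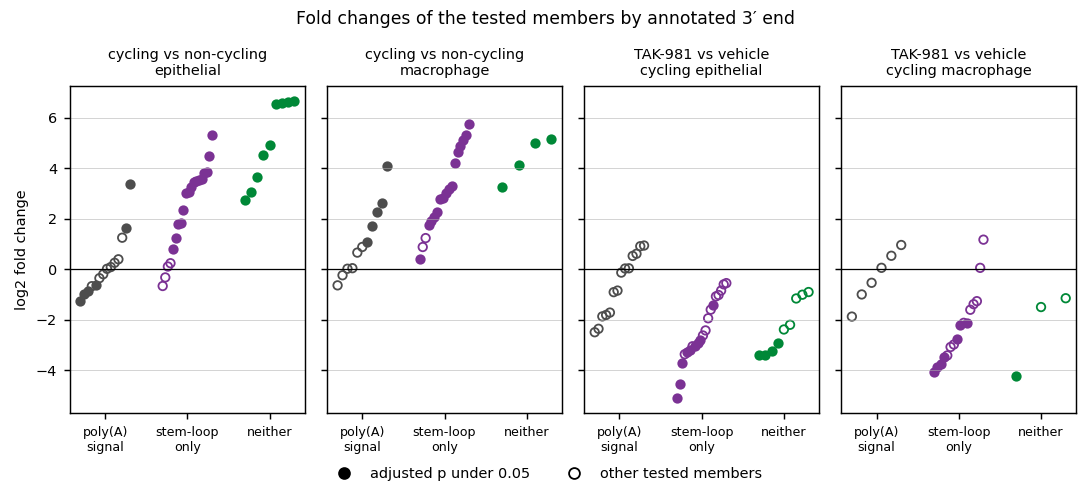
Log2 fold change of each tested member in 4 comparisons, grouped by annotated 3′ end and ordered by value within each group. Filled points have an adjusted p under 0.05. Members with a stem-loop only or neither element lie mostly above 0 for cycling against non-cycling cells and mostly below 0 for TAK-981 against vehicle, whereas those with a poly(A) signal lie on both sides of 0.

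In cycling macrophages 8 of 25 tested members fell and 0 rose, against 0.99% lower and 0.184% higher among 8687 genes, with a median of -1.88 over the 25. Scaled to transcripts under 800 nt, the median of all genes was 0.79, and 12 members were lower and 4 higher (shares of all genes not given). Without vehicle 1 the count was 1, without vehicle 2 it was 2, and in the macrophage cluster led by Ccl8 and F13a1 alone it was 0, with 7 of 13 tested members at an unadjusted p under 0.05. The share of all genes at that unadjusted p is not given. Hist1h4d was at 233, 171, 14.6 and 9.37 CPM. The vehicle libraries were close to each other and far above both TAK-981 libraries (log2 fold change -4.07, SE 0.31, edgeR adjusted p = 0.005815). In the macrophage cluster led by Ccl8 and F13a1 alone its edgeR adjusted p was 0.0541.

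Other members that fell in cycling macrophages were Hist2h2bb (33.8, 30.5, 2.15 and 1.04 CPM; log2 fold change -4.24), Hist1h2bj (14.8, 20.4, 1.29 and 1.04; -3.76) and Hist1h4h (35.9, 28.5, 0.86 and 5.21; -3.48). Hist1h3e was at 38.0, 38.7, 7.75 and 3.12 CPM (-2.77), and Hist1h3c at 59.1, 52.9, 16.4 and 7.81 CPM (-2.20). In these 5 genes neither group overlapped the other. Hist2h2aa1 and Hist2h2ac, H2A genes of the Hist2 cluster, also fell, by 3.89 and 2.13.

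Not all members behaved in this way in macrophages. Hist1h4i was at 32.7, 42.7, 37.9 and 39.1 CPM, with a log2 fold change of 0.05. Hist1h2bc was at 78.1, 122, 146 and 139 CPM, with a log2 fold change of 0.53, both TAK-981 values being above both vehicle values. Hist1h1b was at 399, 326, 198 and 131 CPM, without overlap, and was not called. Of the 13 members that fell in cycling epithelial cells, 5 also fell in cycling macrophages (38.5% of the former and 62.5% of the latter 8): Hist1h2bj, Hist1h3c, Hist1h3e, Hist1h4d and Hist2h2bb. These classes came from the same 4 libraries.

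In cycling fibroblasts 0 of 8 members tested were called by edgeR, where 0% of all genes were, nor by DESeq2. Of the 8, 2 had an unadjusted edgeR p under 0.05, Hist1h4d and Hist1h4i (share of all genes not given). Hist1h4d was at 187, 49.4, 1.44 and 13.5 CPM there, from 42, 13, 1 and 6 UMIs (log2 fold change -4.10, edgeR adjusted p = 0.1408).

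Over all cells of a class, Hist1h4d was the member lower in the most classes. Both vehicle libraries exceeded both TAK-981 libraries in all 7 classes tested. In epithelial cells it was at 167, 45.5, 4.05 and 5.59 CPM (log2 fold change -4.47, SE 0.65, edgeR adjusted p = 0.02608), where 2 of 45 tested members fell, Hist1h2bj being the other, and 0 rose, against 1.93% and 0.79% of 12654 genes. In T or NK cells it was at 79.8, 154, 8.26 and 12.0 CPM and was the only 1 of 7 tested members called (-3.30, edgeR adjusted p = 0.04596), where 0.269% of 4093 genes fell and 0.0489% rose. That call was lost with any 1 library left out, with an edgeR adjusted p of up to 0.836, and DESeq2 gave the gene no adjusted p. In endothelial cells, of 15 to 89 cells per library, it was at 55.3, 79.2, 4.05 and 0 CPM (-4.25, edgeR adjusted p = 0.0231), the only 1 of 6 called, where 1.18% of 4680 genes fell and 0.641% rose. That call was lost with DESeq2, with the replicate block and without vehicle 2.

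In dendritic cells 3 of 5 tested members fell and 0 rose, against 3.61% and 0.451% of 3323 genes. Hist1h4d was at 114, 125, 16.7 and 4.40 CPM, Hist1h1e at 103, 183, 13.3 and 13.2 CPM, and Hist1h1b at 72.2, 183, 6.67 and 8.80 CPM. The groups did not overlap for any of the 3, and the TAK-981 libraries rested on 33 and 28 dendritic cells and 1 to 5 UMIs per gene. Log2 fold changes were -3.30, -3.22 and -3.73, with edgeR adjusted p of 0.01371, 0.01371 and 0.02532. The call of Hist1h4d was lost without vehicle 1 and that of Hist1h1b with cells of at least 1000 UMIs. Cycling cells were 8.97% and 21.6% of the vehicle dendritic cells and 15.2% and 14.3% of the TAK-981 ones, so the groups overlapped. With cells thinned to 1000 UMIs they were 4.13% and 11.4% against 0 of 31 and 0 of 27, and 1 of 11 tested G2/M genes fell. Their part in the lower levels was not tested. Neutrophils held 17, 9, 0 and 0 UMIs of Hist1h4d. None of 4 members passed the edgeR or DESeq2 test in neutrophils or had an unadjusted p under 0.05, where 0.032% of genes fell and 0.128% rose by edgeR. In fibroblasts 0 of 9 passed by edgeR, where 0.724% of genes fell and 0.256% rose. By DESeq2 1 of the 9 passed, and 1 was at an unadjusted p under 0.05 (shares of all genes not given). Over all macrophages 0 of 30 tested members were called by edgeR, nor was any of 10654 genes. DESeq2 called 2 of the members lower, and 14 of the 30 had an unadjusted p under 0.05 (shares of all genes not given). Hist1h4d was at 72.8, 46.6, 8.03 and 4.76 CPM there.

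**Figure D4:**
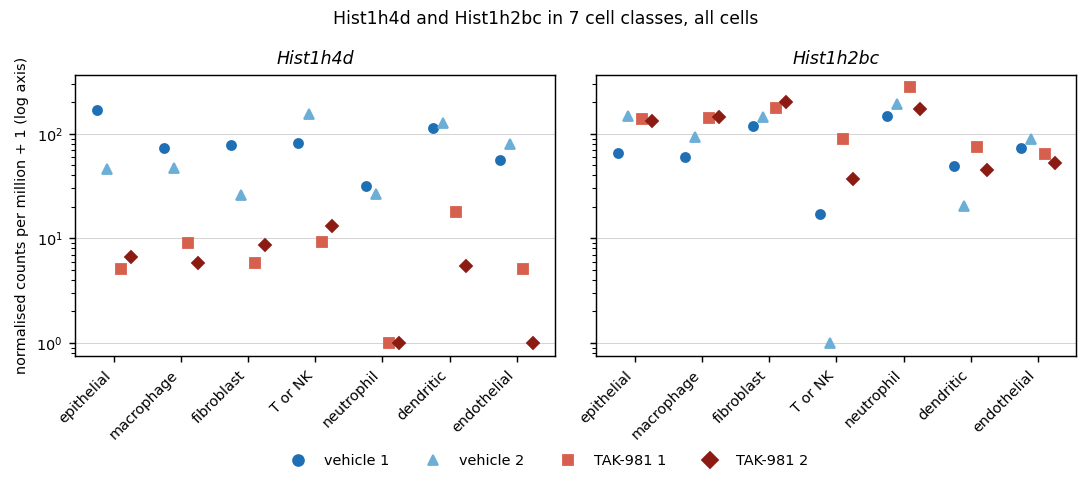
Levels of Hist1h4d (left) and Hist1h2bc (right) over all cells of 7 classes. Each point is 1 library, and the vertical axis is CPM plus 1 on a log scale. Hist1h4d is higher in both vehicle libraries than in both TAK-981 libraries in every class shown, while the libraries of the groups overlap for Hist1h2bc in epithelial cells.

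Fewer members could be tested in non-cycling cells. Of 21 tested in epithelial cells, 1 rose and 1 fell, against 0.661% higher and 2.17% lower among 11494 genes. Hist1h2ac, an H2A gene with a poly(A) signal, was at 3.51, 2.74, 12.2 and 10.4 CPM, without overlap, and rose by 1.86 on the log2 scale (SE 0.35, edgeR adjusted p = 0.04863). That call was lost with either vehicle library left out, with the replicate block and with doublets kept. Scaled to transcripts under 800 nt, 9 members were higher and 1 lower (shares of all genes not given). Hist1h4d fell by 3.19 (SE 0.55, edgeR adjusted p = 0.03686), at 17.6, 9.54, 0.69 and 1.94 CPM, and this call was lost with either vehicle library left out and with the replicate block.

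Hist1h2bc was at 115, 160, 273 and 229 CPM in non-cycling epithelial cells and Hist1h1c at 30.3, 62.0, 102 and 93.0 CPM. In both, each TAK-981 library was above each vehicle library, and neither passed the test (log2 fold changes 0.85 and 1.04, edgeR adjusted p = 0.1369 and 0.1633). In non-cycling macrophages none of 14 tested members was called by edgeR, where 0.0101% of 9946 genes were higher and 0.0101% lower. By DESeq2 1 member fell, and 3 had an unadjusted p under 0.05 (shares of all genes not given). Whether the TAK-981 effect differed between cycling and non-cycling cells was tested as an interaction. None of 43 members in epithelial cells or 33 in macrophages passed by edgeR, nor did more than 0.0202% of all genes. At an unadjusted p under 0.05 were 16 and 12 members (shares of all genes not given). DESeq2 called 1 in epithelial cells. Hist1h1c had the smallest p among the members in epithelial cells (difference -1.02, edgeR adjusted p = 0.1117).

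All members were also summed per library and given as UMIs per 1000000 UMIs of the class and state. In cycling epithelial cells the sum was 1571, 748, 549 and 679, or 1159 ± 582 (SD, n = 2) for vehicle and 614 ± 91.7 (SD, n = 2) for TAK-981. In non-cycling epithelial cells the order was opposite, with 241, 301, 592 and 529, or 271 ± 41.9 and 561 ± 44.6 (SD, n = 2 each). In cycling macrophages the sum was 1788, 1666, 961 and 873, a log2 ratio of TAK-981 to vehicle of -0.91 that was -0.38 in cells thinned to 1000 UMIs and -0.35 in the cluster led by Ccl8 and F13a1 alone. In non-cycling macrophages it was 294, 292, 476 and 445. The groups did not overlap in any of these 4 sums. The exact two-sided permutation test gave p = 0.333 for each, which is the smallest that 2 against 2 allows.

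The sums were then split by annotated 3′ end. Members with a stem-loop only summed to 923, 365, 179 and 299 UMIs per 1000000 in cycling epithelial cells and to 86.4, 67.8, 54.6 and 69.7 in non-cycling ones. Members with a poly(A) signal summed to 279, 245, 214 and 235 in cycling and 146, 228, 535 and 457 in non-cycling cells. The higher non-cycling total of the TAK-981 libraries thus lay in the members with a poly(A) signal, among which Hist1h2bc had the most UMIs. Without that member the log2 ratio of TAK-981 to vehicle in non-cycling epithelial cells was 0.74, against 1.05 with it. With cells thinned to 1000 UMIs it was 0.27.

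The ratio of cycling to non-cycling sums over all members was 6.51, 2.49, 0.93 and 1.28 in epithelial cells. For members with a stem-loop only it was 10.7, 5.39, 3.27 and 4.29, and for those with a poly(A) signal it was 1.91, 1.07, 0.40 and 0.51. In all 3 the vehicle libraries were above the TAK-981 libraries, and the members with neither element went the other way at 40.5, 28.7, 68.0 and 63.3. In macrophages the ratio over all members was 6.08, 5.70, 2.02 and 1.96.

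**Figure D5:**
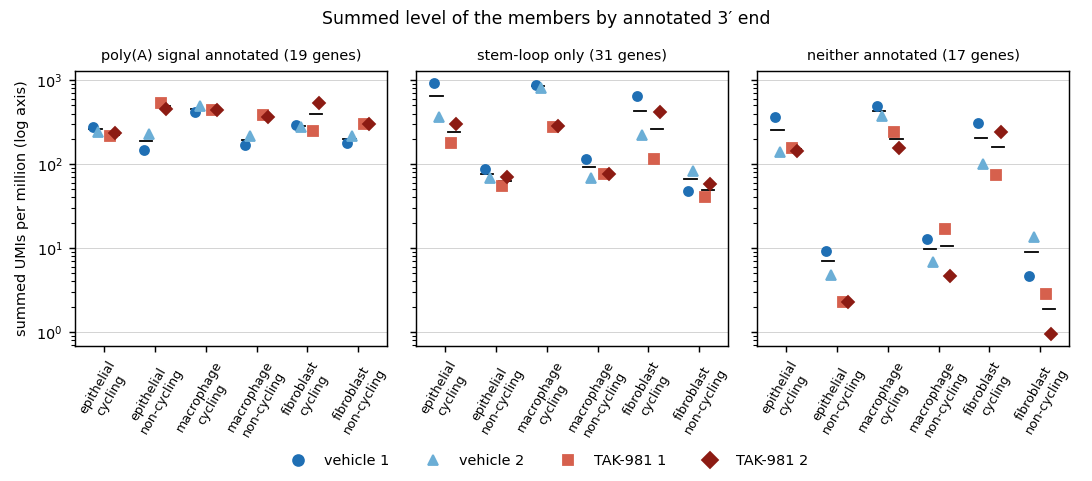
Summed level of the members by annotated 3′ end, class and state. Each point is 1 library, short lines are the means of the 2 libraries of a group, and the vertical axis is UMIs per 1000000 on a log scale. Members with a stem-loop only drop from 179 to 923 in cycling to 54.6 to 86.4 in non-cycling epithelial cells, while those with a poly(A) signal are higher in the non-cycling than in the cycling epithelial cells of both TAK-981 libraries.

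Sums by histone type in cycling epithelial cells followed the single genes. H4 members summed to 352, 153, 60.6 and 50.2 UMIs per 1000000 and H3 members to 102, 42.4, 20.3 and 18.1, without overlap between the groups. H2A members summed to 423, 165, 93.6 and 249, H2B to 151, 153, 115 and 109, and H1 to 543, 235, 259 and 252. The groups overlapped for H2A and H1.

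Cycling calls were kept from full depth, on which they depend. The share of cells with at least 1 UMI of a member without a poly(A) signal was then read after thinning each cell to 1000 UMIs. In cycling epithelial cells it was 42.8%, 27.1%, 22.5% and 27.9% (exact 95% interval for vehicle 1 38.1% to 47.5%, which covers counting error only), and in non-cycling ones 8.03%, 6.89%, 5.71% and 8.49%. Before thinning, the cycling shares were 88.3%, 74.7%, 83.8% and 83.7%. In neutrophils the thinned share was 17.5%, 13.2%, 16.2% and 12.3%, from the 80, 53, 37 and 81 cells with at least 1000 UMIs. Neutrophils are no background reference for this set, since it holds Hist1h4i, which had its highest class mean there (158 CPM, against 52.5 in epithelial cells). What free RNA adds to the non-cycling epithelial shares was not tested. Each cycling epithelial share lay above the neutrophil share of its library. The exact intervals of the cycling and neutrophil shares overlapped in vehicle 2 (23.6% to 30.8% and 5.48% to 25.3%) and in TAK-981 1 (17.8% to 27.8% and 6.19% to 32.0%), and did not in the other libraries. Over all 758, 459, 44 and 103 neutrophils, including those too shallow to enter, median depths were 665.5, 623, 1585.5 and 1439 UMIs.

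Members with at least 100 UMIs in the 7 classes were ranked by class, over all cells of a class and as the mean over libraries. Of 16 such members with a poly(A) signal, 6 were highest in neutrophils. Hist1h1c was 1 of them, at 222, 311, 193 and 256 CPM, as was Hist1h2bc, at 148, 192, 277 and 172 CPM. Of 20 with a stem-loop only, 8 were highest in T or NK cells and 5 in dendritic cells. Of 6 with neither, 4 were highest in epithelial cells. The order rests on few counts in the small classes.

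The genes that act on histone messages were given from lists of other pathway members. In cycling epithelial cells 19.9% of all genes rose and 21.3% fell, and in cycling macrophages 9.5% and 11.1%. Of 10 tested genes for transcription of replication histones, 7 rose in cycling epithelial cells, among them Ccne1, cyclin E1, by 2.64 on the log2 scale and Casp8ap2, a component of the histone locus body, by 0.99. Of 12 tested genes for 3′ end processing and decay, 9 rose, including Slbp, the stem-loop binding protein, by 1.14, and Eri1, an exonuclease that trims histone ends, by 1.09. Of 22 histone chaperones 19 rose and 1 fell, with Asf1b at 3.92, Chaf1a at 2.56 and Nasp, a carrier of H3 and H4, at 1.81. Of 9 replication-independent variants 7 rose, among them Cenpa, the centromeric H3, by 3.60. In macrophages 6 of 10, 2 of 12, 15 of 22 and 6 of 9 rose in the same order of lists, and 1 chaperone and 1 variant fell.

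Few of these genes moved with TAK-981. In cycling epithelial cells none of the transcription, processing or chaperone genes was called by edgeR (0 of 10, 0 of 12 and 0 of 22). Of 9 variants 1 fell, the H2A variant H2afj, by 1.49 on the log2 scale (SE 0.25, edgeR adjusted p = 0.02513). Of 38 S phase genes 1 rose, Fen1, a flap endonuclease of lagging-strand synthesis, by 1.16, and of 50 G2/M genes 2 fell, G2e3 by 1.48 and Nusap1, a spindle protein, by 1.19. In cycling macrophages no gene of any of these lists was called by edgeR.

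Other measures moved with the groups as well. The S-leaning share of cycling epithelial cells was 5.71%, 6.34%, 12.4% and 12.4%. Macrophage markers summed to 145, 98.8, 453 and 196 UMIs per 1000000 in cycling epithelial cells, with 9 of 9 detected, and acinar markers to 7.14, 0.216, 103 and 36.2, with 8 of 8 detected. In cycling macrophages epithelial markers summed to 78.5, 146, 70.4 and 125, with 7 of 8 detected and Cldn4 at 0, and acinar markers to 14.9, 0, 279 and 143. Median mitochondrial shares per library were 2.93%, 2.71%, 6.90% and 5.11%. Their part in the differences between TAK-981 and vehicle was not tested.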

How the data were processed

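Per the submitters' processing notes, the authors made the deposited UMI count tables with Cell Ranger 6.1.2 against mm10. The labels' protocols give 10x 3′ v3.1 chemistry. The annotation release is not given in the sources used here. All deposited columns were used (0 left unused).

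Barcodes under 500 UMIs or 250 genes, or over 20% mitochondrial UMIs, were dropped, and top Scrublet scores were removed at 0.8% per 1000 cells. Clustering in scanpy 1.11.5 (Python 3.11.15) used 2000 variable genes, 30 components, 15 neighbours and Leiden resolution 1.0, and 8 members among the variable genes were left out. A class name needed 3 markers, each in 10% of the cells. No protein marker was measured, so the names are those of the marker lists.

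Counts were summed and TAK-981 compared with vehicle where every library had at least 15 cells, and states of a class were compared over the libraries with 15 cells in both, at least 2. Sums were tested with edgeR 4.0.16 (limma 3.58.1, R 4.3.3; TMM, filterByExpr). DESeq2 1.42.0 was an alternative. Shares over all genes are those of the main edgeR fits. Member counts at an unadjusted p, by DESeq2 or under other settings are given without such a share, so they describe the members alone. Fold changes are edgeR's log2 values, and code was tested on simulated data. Named genes are called members (up to 15 per comparison), the 15 most abundant epithelial members, and up to 4 called genes per list. Gene IDs matched GENCODE vM21 for 99.8% of genes. Members and lists were chosen with earlier results of these data known. Intervals are Clopper-Pearson. Replicate numbers only name the libraries, so the fits of TAK-981 against vehicle carry no pairing.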

Additional observations from a re-analysis of the deposited data

How the results depend on the processing

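Counts in this section are of members, and the share of all genes called under each setting is not given here. With a replicate block, the count of members that fell under TAK-981 was 12 in cycling epithelial cells (13 without it) and 8 in cycling macrophages. The 1 member that rose in non-cycling epithelial cells became 0. With only 2 pairs, same-numbered libraries did not deviate together (correlations -0.04 and -0.06), and the crossed block, added after seeing the data, gave 13 and 15, 12 lower over all epithelial cells and 2 higher in non-cycling ones. Its 13 in cycling epithelial cells were not the same 13 members. Of the main calls 8 were kept and 5 were lost: Hist1h2bm, Hist1h2bn, Hist1h3i, Hist1h4i and Hist2h2bb. Over all epithelial cells 2 members fell. This became 19 with DESeq2, 27 without a low-count filter, 10 with TMM from transcripts under 800 nt, 1 at 1000 UMIs per cell and 1 to 11 with a library left out. In cycling epithelial cells the 13 became 21 with DESeq2, 31 without a filter, 20 with 2 UMIs for cycling and 0 to 21 with a library left out. In 1 cluster alone, led by Tnfrsf12a and added after seeing the data, it became 22. That cluster held 297, 60, 173 and 669 of the 443, 624, 284 and 808 cycling epithelial cells, so vehicle 2 entered with a small part of its cells. In cycling macrophages the 8 became 20, 14 and 0 without a filter, at 2 UMIs and in 1 cluster, and 1 to 10 with a library left out.

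For cycling against non-cycling cells, dropping the library block (no replicate block) left 8 of 27 higher and 0 of 4 lower members in epithelial cells and 9 of 25 higher in macrophages. Leaving out a library gave 19 to 27, 3 to 4 and 16 to 24. For S-leaning cells DESeq2 called 3 in each class, and leaving out a library gave 3 to 8 and 5 to 12. The interaction gave 1 by DESeq2 in epithelial cells, and 10 and 2 without a filter in epithelial cells and macrophages.

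The 1 higher member of non-cycling epithelial cells became 2 with DESeq2, 4 without a filter, 9 with TMM from short transcripts, 0 with cycling called at 1000 UMIs, 0 with doublets kept and 0 to 2 with a library left out. Of the summed log2 ratios, that of cycling epithelial cells was -1.36 to -0.28 with a library left out (-0.92 with all). That of non-cycling epithelial cells (1.05) was 0.53 after TMM, 0.74 without Hist1h2bc and 0.27 in cells thinned to 1000 UMIs. In cycling macrophages (-0.91) it was -1.10, -1.09 and -0.38 under the same settings, -1.19 at 2 UMIs and -0.35 in 1 cluster. In non-cycling macrophages (0.65) it was 0.46 after TMM, 0.42 without the top member and 0.60 to 0.70 with a library left out. The cause of these shifts was not tested. Of the summed log2 ratios and the called genes, none changed sign under an alternative run. Member counts and genes that were not called were not scored for a change of sign. Over the named genes, 941 calls were kept and 165 lost. Depth limits members under 100 UMIs, and the TAK-981 libraries hold 3 UMIs or fewer of some genes.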

Other observations

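Cells of unnamed clusters and B cells, which were left out of the tests together with acinar cells (14, 0, 146 and 36 cells), gave these summed member levels, in UMIs per 1000000 and in the library order of the report. Cells of unnamed clusters, which were led by haemoglobin, plasma cell or mitochondrial genes, held 1263, 497, 337 and 255 over all cells, and 2563, 824, 267 and 301 in the cycling ones. B cells held 839, 474, 219 and 132, from 430, 14, 9 and 3 cells.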
